A study of Mus musculus with 8 samples.

Results

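The 7 genes Gabra2, Gabra3, Gabra4, Gabra5, Gabrb1, Gabrb2 and Gabrd, which encode subunits of the GABA-A receptor, were examined among the 20802 genes quantified in the mouse hippocampus. They were chosen by name, as subunits of synaptic receptors and of the extrasynaptic receptors that carry tonic current. The rule did not use their measured values, but earlier results of these data were known when they were chosen. All 7 were in the table, and all passed the filter on low values that left 18865 genes for testing.

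GABA-A receptors are chloride channels opened by GABA, the main inhibitory transmitter of the forebrain, and each is a ring of subunits that usually combines alpha and beta subunits with a gamma or a delta subunit. GABA binds between alpha and beta subunits, and the alpha subunit largely sets where the receptor sits and how it responds to benzodiazepines. In the hippocampus, receptors with the alpha2 subunit are mostly synaptic, whereas those with alpha5, or with alpha4 and delta, lie largely outside the synapse and carry tonic inhibition.

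Hippocampal RNA was sequenced from 8 male C57BL/6 mice, 4 given ketamine (Anesthesia group) and 4 given saline (Control group), to ask how repeated ketamine anesthesia in late postnatal life had altered gene expression. Ketamine is a dissociative anesthetic that acts mainly as an NMDA receptor antagonist. From PND16 on, ketamine at 35 mg per kg was given intraperitoneally once daily, 5 times in all, and the Control group had saline in its place. The labels give an age of P28 for both groups, the methods place RNA extraction 1 week after the injections, and the sample titles call the Control mice untreated. The sources used here do not state whether the mice of a group came from separate litters, so p-values measure only the spread between these 8 mice. Values are normalized counts, that is, estimated read counts divided by a library factor by the authors, and their totals of 18702634 to 19231119 per mouse no longer show sequencing depth.

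3 of the 7 genes lie close together on chromosome 5 of GRCm38. Gabra2 (ENSMUSG00000000560) spans chr5:70957597-71095849 on the minus strand, and Gabra4 (ENSMUSG00000029211) follows 473899 bases further on at chr5:71569749-71658308, also on the minus strand. Gabrb1 (ENSMUSG00000029212) starts head to head with Gabra4 and spans chr5:71658113-72149037 on the plus strand. The GENCODE M21 spans of these neighbours thus share 196 bases. The methods name a stranded kit and the labels another kit, so reads in those shared bases could not be assigned with certainty. Gabra5 (ENSMUSG00000055078) lies at chr7:57407672-57510059 on the minus strand, Gabrb2 (ENSMUSG00000007653) at chr11:42419757-42629028 on the plus strand, Gabrd (ENSMUSG00000029054) at chr4:155384980-155398112 on the minus strand, and Gabra3 (ENSMUSG00000031343) at chrX:72432681-72656848 on the minus strand.

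Promoter windows of 300 bases (250 before to 50 after a RefSeq transcription start, GRCm38.p6) were found for 6 of the 7 genes, 10 windows in all. Those of the head-to-head pair are shown first because their starts face each other, with 288 bases between the windows. The Gabrb1 window shown ends before the GENCODE span of Gabrb1 begins, so the 2 annotations place its start differently. The bases between the windows lie downstream of both RefSeq starts. Those of Gabra5 and Gabra3 are shown because the levels of these genes lay at opposite extremes in the same mice. Capitals mark matches to the EGR motif GCGNGGGCG or the TATA motif TATAAA on either strand, and each sequence runs 5′ to 3′ on the strand of its gene.
Gabrb1, chr5:71657671-71657970, plus strand: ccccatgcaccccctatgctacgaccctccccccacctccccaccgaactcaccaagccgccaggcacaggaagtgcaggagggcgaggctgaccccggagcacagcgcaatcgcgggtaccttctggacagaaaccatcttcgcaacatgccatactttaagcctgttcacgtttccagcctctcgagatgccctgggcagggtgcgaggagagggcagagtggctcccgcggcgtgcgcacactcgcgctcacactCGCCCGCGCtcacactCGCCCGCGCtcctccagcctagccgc
Gabra4, chr5:71658259-71658558, minus strand: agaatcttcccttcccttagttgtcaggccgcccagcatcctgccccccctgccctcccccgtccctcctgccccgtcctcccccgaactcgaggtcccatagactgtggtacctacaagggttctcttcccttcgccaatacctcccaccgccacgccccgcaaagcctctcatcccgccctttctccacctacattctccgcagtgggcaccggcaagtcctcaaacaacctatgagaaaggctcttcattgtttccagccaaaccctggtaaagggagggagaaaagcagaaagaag
Gabra5, chr7:57510010-57510309, minus strand: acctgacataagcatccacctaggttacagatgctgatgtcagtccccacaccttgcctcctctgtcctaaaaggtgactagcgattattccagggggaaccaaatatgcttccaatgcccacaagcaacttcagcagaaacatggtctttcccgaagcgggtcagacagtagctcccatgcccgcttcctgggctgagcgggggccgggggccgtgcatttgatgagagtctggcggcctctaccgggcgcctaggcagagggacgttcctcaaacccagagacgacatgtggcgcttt
Gabra3, chrX:72656870-72657169, minus strand: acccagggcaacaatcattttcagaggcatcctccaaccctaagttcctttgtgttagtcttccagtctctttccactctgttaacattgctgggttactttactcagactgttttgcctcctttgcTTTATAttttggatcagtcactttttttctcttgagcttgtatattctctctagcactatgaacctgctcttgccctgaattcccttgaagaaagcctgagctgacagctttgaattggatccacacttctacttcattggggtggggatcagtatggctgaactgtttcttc
The Gabrb1 window shown held 2 matches to the EGR motif, which occurred in 5.55% of all 32851 windows, and 25 CpG dinucleotides at a GC content of 66%. The other Gabrb1 window, at chr5:71699682-71699981, had no match, 9 CpG dinucleotides and 50.3% GC. The Gabra4 window had no match to either motif, 12 CpG dinucleotides and 58.7% GC. The Gabra5 window also had none, with 13 CpG dinucleotides and 56.7% GC. The Gabra3 window shown was unlike these in base composition, with 0 CpG dinucleotides, 43% GC against a median of 52.7% over all windows, and 1 match to the TATA motif, which 13.6% of windows held. A second Gabra3 window, which overlaps it, held the same match with 0 CpG dinucleotides and 39.3% GC. Among the windows not shown, that of Gabrb2 at chr11:42420190-42420489 held 1 match to the EGR motif and 1 to the TATA motif. The remaining Gabrb2 windows and the Gabra2 window held neither. The cyclic AMP response element TGACGTCA, present in 1.79% of windows, was in none of the 10.

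No difference between the groups was detected for any of the 7 subunit genes. Among the 18865 genes, 0% had an adjusted p under 0.05 (limma on log2(normalized count + 1), Benjamini-Hochberg adjustment), the lowest adjusted p being 0.381, and limma voom also called 0 genes. The study's own count model, DESeq2, did call genes at the same adjusted threshold, so the absence of calls holds for the models used here. At an unadjusted p under 0.05 the background was 8.02% of genes, 1513 in number (1510 by limma voom), and 0 of the 7 subunit genes were among them. For 5.04% of genes all Anesthesia values lay on 1 side of all Control values, and this held for 0 of the 7. Of the subunit genes, 2 had a log2 fold change above 0 and 5 below, with a median of -0.05 beside -0.004 over all genes tested. Bulk RNA was measured, so fewer cells of a type and less RNA per cell cannot be told apart.

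Among the alpha subunits, Gabra5, whose product forms the tonic receptors typical of hippocampal pyramidal neurons, had the largest difference in mean. Its normalized count was 2483, 3280, 1956 and 2474 in Anesthesia mice 1 to 4, and 3170, 2774, 2764 and 2670 in Control mice 1 to 4. Anesthesia 2 had the highest value of all 8 mice and Anesthesia 3 the lowest, while the other Anesthesia mice lay just under the Control range. The means were 2548 ± 546 and 2845 ± 222 (SD, n = 4), with a log2 fold change of -0.18 (SE 0.13, 95% interval -0.47 to 0.11, limma adjusted p = 0.724). Single mice moved its size in opposite directions. Without Anesthesia 2 the log2 fold change was -0.31, with an unadjusted limma p of 0.00961 and an adjusted p of 0.50. Without Anesthesia 3 it was -0.06, and without both mice it was -0.20.

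Gabra3, which is prominent in the developing forebrain and less so in the adult hippocampus, was the most variable of the 7. Its normalized count was 712.1, 287.4, 1007 and 625.1 in Anesthesia mice 1 to 4, and 600.5, 797.5, 441.0 and 700.1 in Control mice 1 to 4. Here Anesthesia 3 was highest and Anesthesia 2 lowest, the reverse of Gabra5, and all Control mice lay between them. The means were 658 ± 296 and 635 ± 152 (SD, n = 4), while the log2 fold change, the difference between the means of log2 values, was -0.05 (SE 0.33, limma adjusted p = 0.974) and so had the opposite sign. The 95% interval of -0.77 to 0.67 was the widest of the 7 and left differences of either sign possible. Leaving out Anesthesia 2 moved the log2 fold change to 0.30, and leaving out Anesthesia 3 moved it to -0.30.

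Gabra4, whose product assembles with delta in the tonic receptors of dentate granule cells, hardly varied. Its normalized count was 2007, 2379, 2058 and 1988 in Anesthesia mice 1 to 4, and 2441, 2289, 2069 and 1969 in Control mice 1 to 4. Anesthesia 2 and Control 1 were the highest of their groups, as they were for Gabra5. The log2 fold change was -0.06 (SE 0.08, 95% interval -0.24 to 0.13, limma adjusted p = 0.862), between means of 2108 ± 183 and 2192 ± 213 (SD, n = 4).

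Gabra2, the alpha subunit of many synapses on pyramidal neurons and of their axon initial segment, was 2599, 2095, 1955 and 2282 normalized counts in Anesthesia mice 1 to 4. In Control mice 1 to 4 it was 2547, 2427, 2079 and 2027. Each group held high and low mice over nearly the same range. The log2 fold change was -0.03 (SE 0.10, 95% interval -0.25 to 0.20, limma adjusted p = 0.954), and the means were 2233 ± 278 and 2270 ± 256 (SD, n = 4).

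The beta subunits, which share the GABA binding site with alpha, varied little. Gabrb1 was 5686, 5465, 4637 and 5496 normalized counts in Anesthesia mice 1 to 4, and 5777, 6034, 5565 and 5093 in Control mice 1 to 4. Only Anesthesia 3 lay below the Control range, and the log2 fold change was -0.08 (SE 0.08, 95% interval -0.25 to 0.09, limma adjusted p = 0.781), with means of 5321 ± 466 and 5617 ± 398 (SD, n = 4). Gabrb2, whose product carries a site for the anesthetic etomidate, was 3889, 3922, 4227 and 3818 normalized counts in Anesthesia mice 1 to 4, and 3854, 4109, 3302 and 3942 in Control mice 1 to 4. Anesthesia 3 stood above the Control range, the other Anesthesia mice sat within it, and Control 3 was the lowest of the 8. Its log2 fold change was 0.06 (SE 0.07, 95% interval -0.10 to 0.22, limma adjusted p = 0.813), with means of 3964 ± 180 and 3802 ± 350 (SD, n = 4).

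Gabrd encodes delta, the subunit of neurosteroid-sensitive extrasynaptic receptors. Its normalized count was 341.2, 473.1, 582.2 and 381.1 in Anesthesia mice 1 to 4, and 499.1, 399.0, 370.3 and 390.1 in Control mice 1 to 4. Anesthesia mice held both the highest and the lowest value, and the log2 fold change was 0.08 (SE 0.16, 95% interval -0.28 to 0.44, limma adjusted p = 0.903), with means of 444 ± 107 and 415 ± 57.6 (SD, n = 4). Markers of the choroid plexus, the ventricular epithelium beside the hippocampus, were high mostly in mice with less Gabrd, although the ranges overlapped. The summed normalized count of 12 such markers was 26880 to 67537 in Anesthesia 1 and Control 2, 3 and 4, where Gabrd was 341.2 to 399.0, and 515 to 3511 in the other mice, where Gabrd was 381.1 to 582.2. With the level of that list as a covariate the log2 fold change was -0.12, and its part in the result was not otherwise tested.

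**Figure D1:**
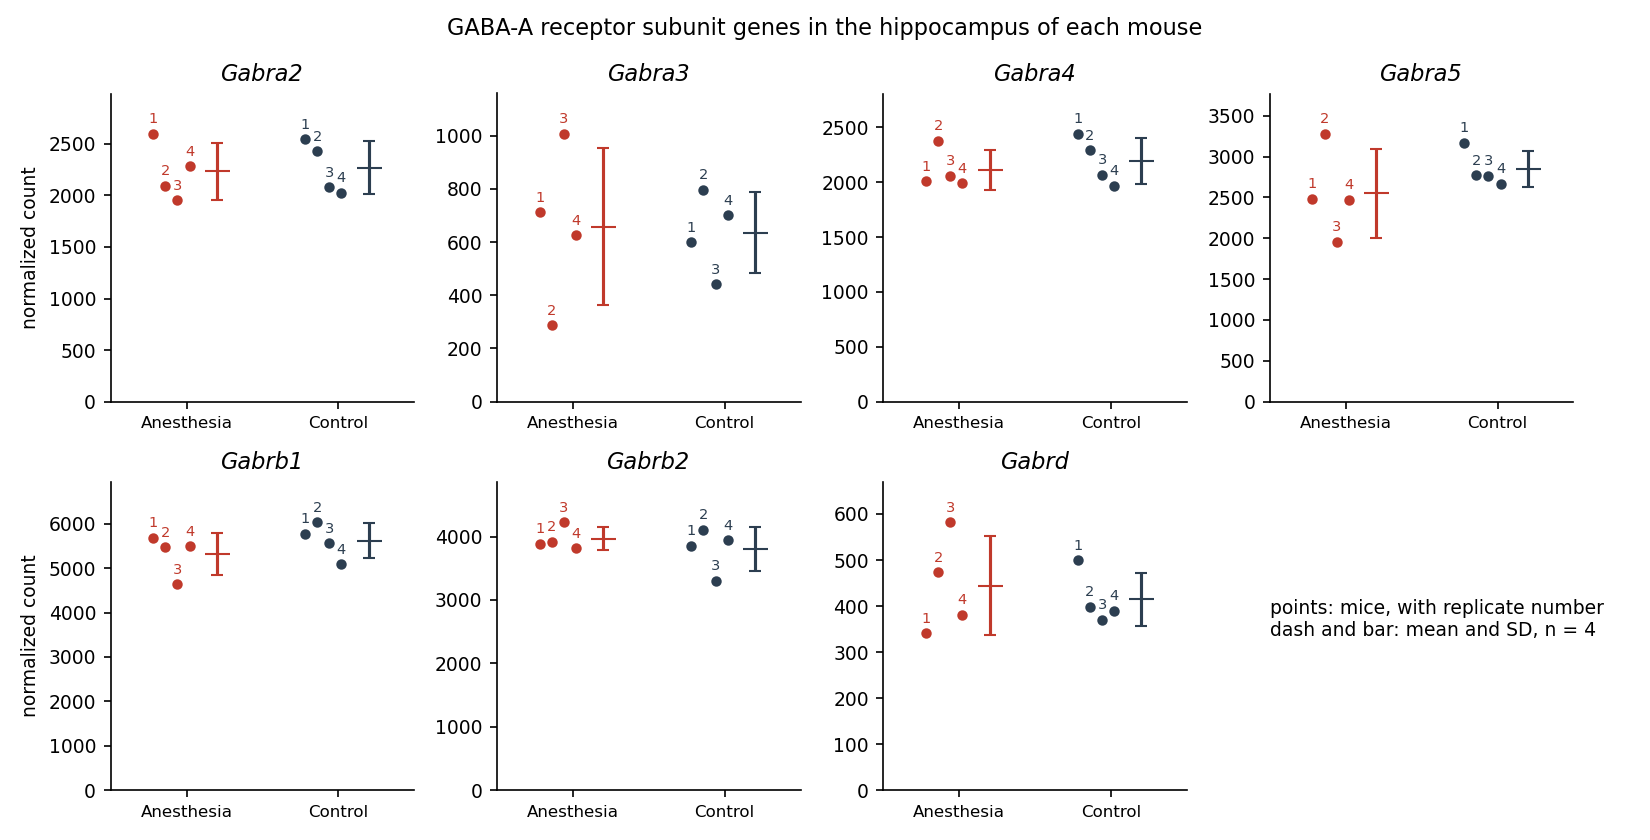
Normalized counts of the 7 subunit genes (y axes, each from 0) in the Anesthesia and Control groups (x axes), with a numbered point per mouse and the mean with its SD (n = 4) beside them. The groups overlap for every gene, and the Anesthesia points spread from 287.4 to 1007 for Gabra3 and from 1956 to 3280 for Gabra5.

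The spread between mice differed among the genes. Within the Anesthesia group the highest Gabra3 value was 3.51 times the lowest, beside 1.81 times within the Control group. For Gabra5 the same ratios were 1.68 and 1.19, for Gabrd 1.71 and 1.35, and for Gabrb2 1.11 and 1.24. The SD of log2 values was 2.79 times as large in the Anesthesia group for Gabra5 and 2.08 times for Gabra3. A factor of at least 2 was reached by 2 of the 7 genes and by 21% of all genes tested, so the share among 7 genes was near the background. Over all genes tested 59.4% had the larger SD in the Anesthesia group, and 5 of the 7 did. These ratios rest on 4 mice a group, were computed after the values were known and were not tested.

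Individual mice accounted for most of the extremes. Anesthesia 3 was the highest or lowest of the 8 mice for 6 of the genes, being lowest for Gabra2, Gabra5 and Gabrb1 and highest for Gabra3, Gabrb2 and Gabrd. Anesthesia 2 was lowest for Gabra3, at 1.08 below the mean of the 8 mice on the log2 scale (-1.08), and highest for Gabra5, at 0.30 above it. Gabra4 was the exception, with its extremes in Control 1 and Control 4.

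Across the 8 mice the subunit genes formed 21 pairs, 13 with a positive and 8 with a negative correlation of log2 values, and none had an adjusted p under 0.05 by exact permutation (two-sided). The lowest unadjusted p belonged to Gabra2 and Gabrb1, both on chromosome 5, with r = 0.784 (exact permutation p = 0.0116, adjusted p = 0.244) and rho = 0.833 (p = 0.0154, adjusted p = 0.323). That correlation was 0.858 without Anesthesia 1 and Control 1, the mice farthest from the median. Gabra3 and Gabra5 varied in opposite directions with r = -0.753 (exact permutation p = 0.0363, adjusted p = 0.337) and rho = -0.643 (p = 0.0962, adjusted p = 0.505), but r was -0.220 without Anesthesia 2 and 3, so the relation rested on those mice. Gabra4 and Gabra5 had r = 0.699 (exact permutation p = 0.0481, adjusted p = 0.337) and rho = 0.762 (p = 0.0368, adjusted p = 0.386), with r = 0.256 without Anesthesia 2 and Control 1. The head-to-head pair Gabra4 and Gabrb1 had r = 0.459 (exact permutation p = 0.260) and rho = 0.476 (p = 0.243).

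Markers of hippocampal subregions varied between the mice as well. Marker lists for dentate granule, CA1 and CA3 neurons were all detected, and their levels are given as mean log2 differences from the Control mean. The dentate granule list of 10 genes was 0.54 in Anesthesia 2 and 0.40 in Control 1, -0.46 in Anesthesia 3 and -0.37 in Control 4, and -0.12 to 0.10 in the other mice. The CA3 list of 6 genes was highest in Anesthesia 2 at 0.20 and lowest in Anesthesia 3 at -0.44. The CA1 list of 8 genes was highest in Control 4 at 0.19 and lowest in Control 3 at -0.21. A list of neocortical genes chosen after the values were seen, 11 of them in the table, was 1.09 in Anesthesia 3 and -0.35 to 0.28 in the other mice, and 8 of the 11 were highest in Anesthesia 3. Tbr1, a cortical glutamatergic marker, was highest there, with 184 to 335 elsewhere.

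**Figure D2:**
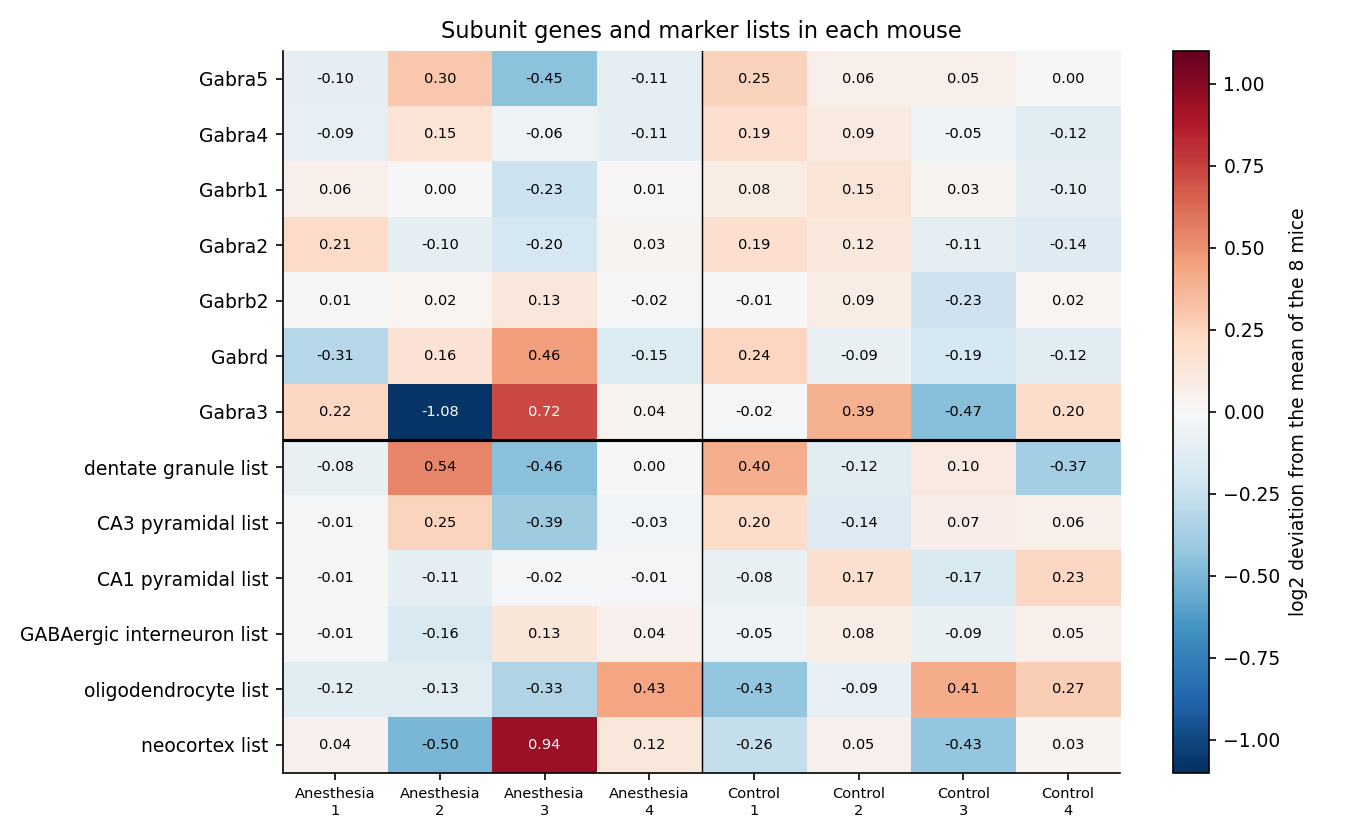
Log2 deviation of each subunit gene, and of the mean of each marker list, from the mean of the 8 mice (color scale and printed values; rows, genes above and lists below the line; columns, mice, Anesthesia left of the line). Gabra3 is 1.08 below its mean (-1.08) in Anesthesia 2 and 0.72 above it in Anesthesia 3, where the neocortex list stands 0.94 above its own.

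Of 21 relations between the 7 genes and the 3 subregion lists, examined after the values were known, 0 had an adjusted p under 0.05 for Pearson's r and 2 for Spearman's rho, both of Gabra3. Gabra3 was lower in mice with more dentate granule signal, with r = -0.830 (exact permutation p = 0.0102, adjusted p = 0.0714), rho = -0.905 (p = 0.00456, adjusted p = 0.0479) and r = -0.806 without Anesthesia 2 and Control 1. With the CA3 list it had r = -0.810 (exact permutation p = 0.0185, adjusted p = 0.0971) and the same rho and p-values, and r = -0.543 without Anesthesia 2 and 3. Gabra5 followed the CA3 list with r = 0.911 (exact permutation p = 0.00278, adjusted p = 0.0583) and rho = 0.762 (p = 0.0368, adjusted p = 0.257), and r was 0.618 without Anesthesia 2 and 3. With the dentate granule list Gabra5 had r = 0.841 (exact permutation p = 0.00823, adjusted p = 0.0714) and rho = 0.714 (p = 0.0576, adjusted p = 0.291), and r = 0.618 without Anesthesia 2 and Control 1. With the CA1 list the signs were the other way round, Gabra5 having r = -0.185 (exact permutation p = 0.664, adjusted p = 0.774) and rho = -0.333 (p = 0.428, adjusted p = 0.642), and Gabra3 r = 0.560 (p = 0.139, adjusted p = 0.437) and rho = 0.667 (p = 0.0831, adjusted p = 0.291). Without Control 2 and Control 4 these r were -0.606 and 0.706. Gabra4 and the dentate granule list had r = 0.732 (exact permutation p = 0.0487, adjusted p = 0.205) and rho = 0.619 (p = 0.115, adjusted p = 0.345), and r = 0.128 without Anesthesia 2 and Control 1. Mice rich and poor in choroid plexus markers formed separate sets of 4, too few for a correlation within either. The neocortical list was also lowest in Anesthesia 2 (-0.35) and highest in Anesthesia 3 (1.09), the mice with the lowest and highest Gabra3. Among the mice between them, Control 3, Control 1, Control 4, Anesthesia 1 and Control 2 rose in that same order on the list and for Gabra3. Anesthesia 4 was the highest of the mice between on the list (0.28) but lay between Control 1 and Control 4 for Gabra3. The relation of Gabra3 to the neocortical list was not tested. The part of subregion or neocortical content in the spread of Gabra3 and Gabra5 was not tested beyond the relations given.

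**Figure D3:**
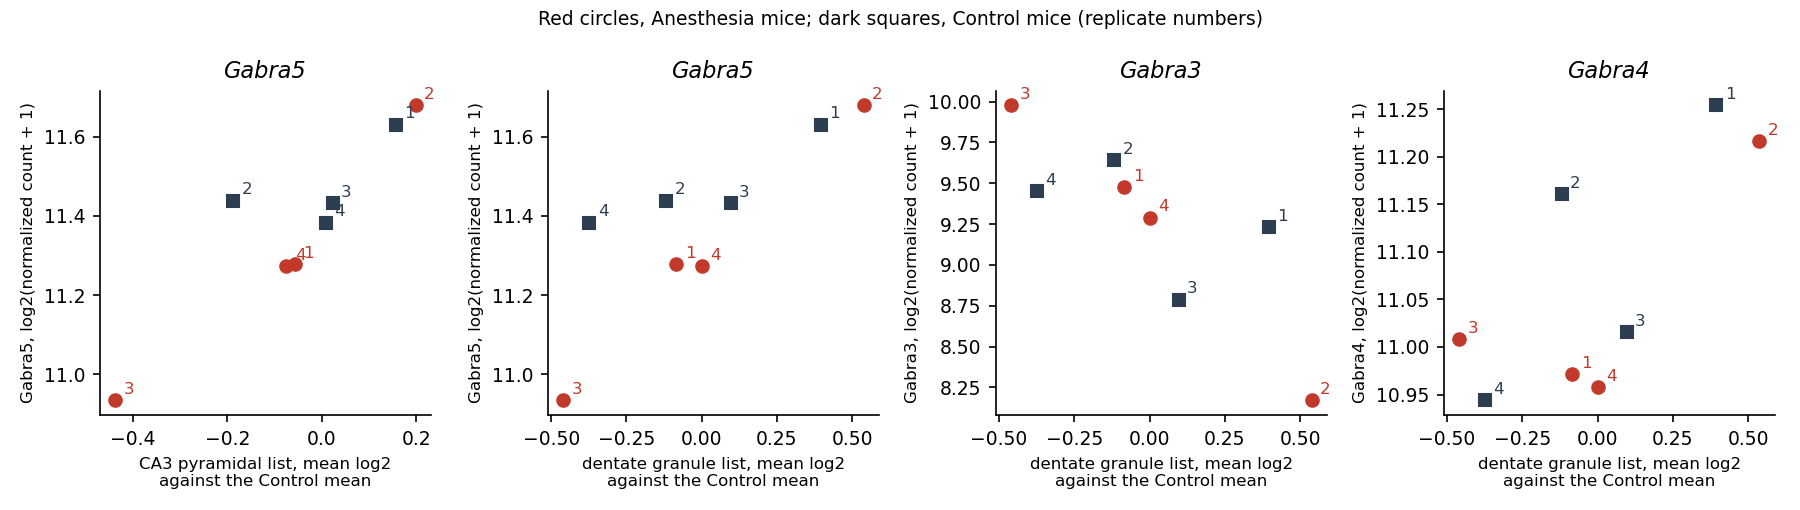
Log2(normalized count + 1) of Gabra5, Gabra3 and Gabra4 (y axes) against the mean log2 level of the CA3 or dentate granule list relative to the Control mean (x axes), with red circles for Anesthesia and dark squares for Control mice. Gabra5 runs upwards and Gabra3 downwards, with Anesthesia 2 and Anesthesia 3 at the ends of the plots of Gabra5 against CA3 (r = 0.911) and of Gabra3 against the dentate granule list (r = -0.830).

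Levels of the 7 genes were set side by side per kilobase of transcript, dividing each mean normalized count by the median length of the gene's protein-coding transcripts. Gabrb2 was highest with a mean level of 1405 normalized counts per kilobase, followed by Gabra5 with 1034, Gabra4 with 893, Gabrb1 with 753, Gabra2 with 385, Gabra3 with 237 and Gabrd with 224. Gabrb2 stood above Gabra5 in 8 of 8 mice and Gabra3 above Gabrd in 5 of 8. Of neighbours in this order only Gabrb1 and Gabra2 had ranges over the 8 mice that did not overlap. The order depended on the length used, since per kilobase of the longest transcript Gabra5 led with 1010, Gabrb2 had 973 and Gabra3 came last with 177.

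Of the summed level per kilobase of the 4 alpha subunits among these genes, Gabra5 made up 39.2% ± 5.73 in Anesthesia and 41.7% ± 1.85 in Control mice (SD, n = 4). Gabra4 made up 35.4% ± 1.67 and 34.7% ± 0.843. Gabra3 made up 3.89% in Anesthesia 2, where Gabra5 made up 46.4%, and 16.0% in Anesthesia 3, where Gabra5 made up 32.5%. Control mice lay between these extremes, with 6.64% to 10.7% for Gabra3.

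**Figure D4:**
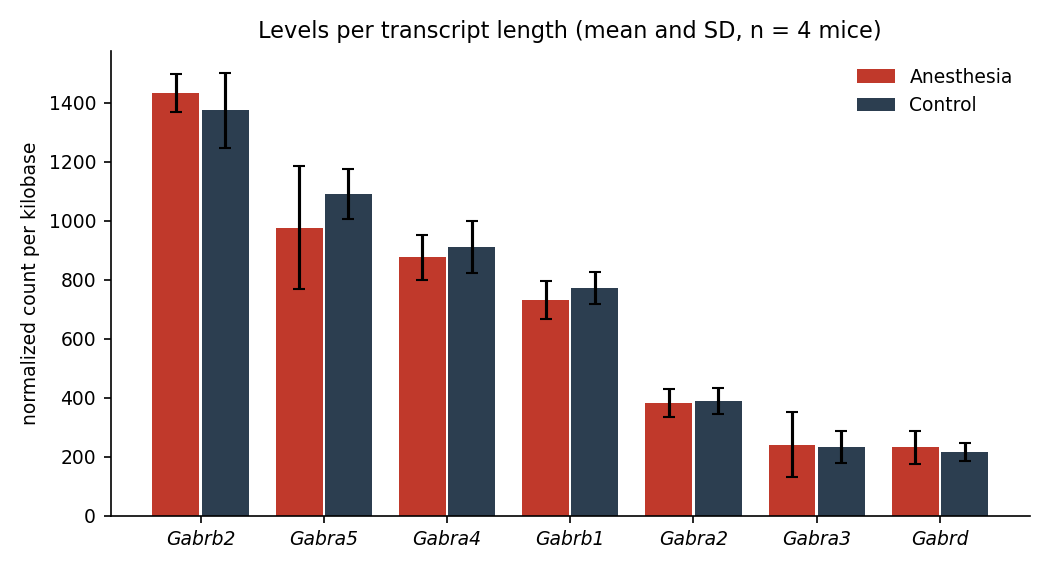
Mean normalized count per kilobase of median protein-coding transcript length (y axis, from 0) of the 7 subunit genes (x axis) in the Anesthesia and Control groups, with SD bars (n = 4 mice). Gabrb2 has the highest bars and Gabra3 and Gabrd the lowest, and within every gene the SD bars of the groups overlap.

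For each subunit gene the most similar profiles over the 8 mice were sought among 12247 genes with a mean of at least 100, by the distance between standardized log2 values, which can range from 0 to 5.66. Gabra5 had the closest neighbours of the 7, Gng2 at a distance of 0.289 and Nckap1 at 0.453. Gng2, a G protein gamma subunit, had a normalized count of 3091 in Anesthesia 2 and 2169 in Anesthesia 3, and 2733 to 3011 in the Control group. The nearest to Gabra3 were Cntn6, a neuronal adhesion molecule, at 0.546 and Dok5 at 0.584. Cntn6 had its lowest normalized count, 167, in Anesthesia 2 and its highest, 339, in Anesthesia 3. Gabrd lay nearest to Sntg1 at 0.536, and Gabra4 to Gm42688 at 0.562 and Lrp11 at 0.731. Gabrb1 lay nearest to Srsf12 at 0.667 and Smc2 at 0.669, Gabrb2 to Ntn3 at 0.769 and Ptpn23 at 0.846, and Gabra2 to Atxn7l3b at 0.904 and Rab11a at 0.937.

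The other genes of GABA signaling also had no call. Of 12 other GABA-A and rho subunit genes listed, 6 were in the table, with 0 called, 1 with a log2 fold change above 0 and 5 below, and a median of -0.03. Gabrq, which encodes the rare theta subunit, was 14.3, 9.7, 8.9 and 13.1 normalized counts in Anesthesia mice 1 to 4 and 20.9, 32.7, 30.1 and 12.4 in Control mice 1 to 4, near the filter on low values. Its log2 fold change was -0.94 (SE 0.34, limma adjusted p = 0.620), and the groups overlapped through Control 4. For the gamma subunits Gabrg1 and Gabrg3 the log2 fold changes were -0.27 (adjusted p = 0.663) and 0.15 (adjusted p = 0.737).

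Of 24 genes for receptor anchoring and trafficking 23 were in the table, with 0 called, 12 above 0 and 11 below and a median log2 fold change of 0.01. Iqsec3, a guanine nucleotide exchange factor of inhibitory synapses that binds gephyrin, was 1803 to 2156 normalized counts in Anesthesia and 1503 to 1658 in Control mice, without overlap, with a log2 fold change of 0.30 (SE 0.07, limma adjusted p = 0.565). Groups without overlap were found for 1 of the 23 genes and for 5.04% of all genes tested, so this share was near the background. Shisa7, an auxiliary subunit of GABA-A receptors, had 0.33 (SE 0.14, adjusted p = 0.622), with 904.7 in Anesthesia 2 and 510.5 to 566.0 in the Control group. Gphn, which encodes the scaffold gephyrin, had -0.21 (SE 0.09, adjusted p = 0.622).

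All 10 genes of GABA synthesis, release and uptake were found and 0 were called, with 4 above 0 and 6 below and a median log2 fold change of -0.03. The GABA-synthesizing enzymes Gad1 and Gad2 had log2 fold changes of -0.14 (SE 0.06, limma adjusted p = 0.622) and -0.12 (SE 0.06, adjusted p = 0.661), and the degrading enzyme Abat -0.10 (SE 0.07, adjusted p = 0.694). Among 8 genes of the metabotropic GABA-B receptor and its effectors, 0 were called, with 3 above 0 and 5 below and a median of -0.02. Its subunit Gabbr2 had 0.19 (adjusted p = 0.636), the potassium channel subunit Kcnj9 0.23 (adjusted p = 0.706) and the auxiliary subunit Kctd16 0.13 (adjusted p = 0.736).

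**Figure D5:**
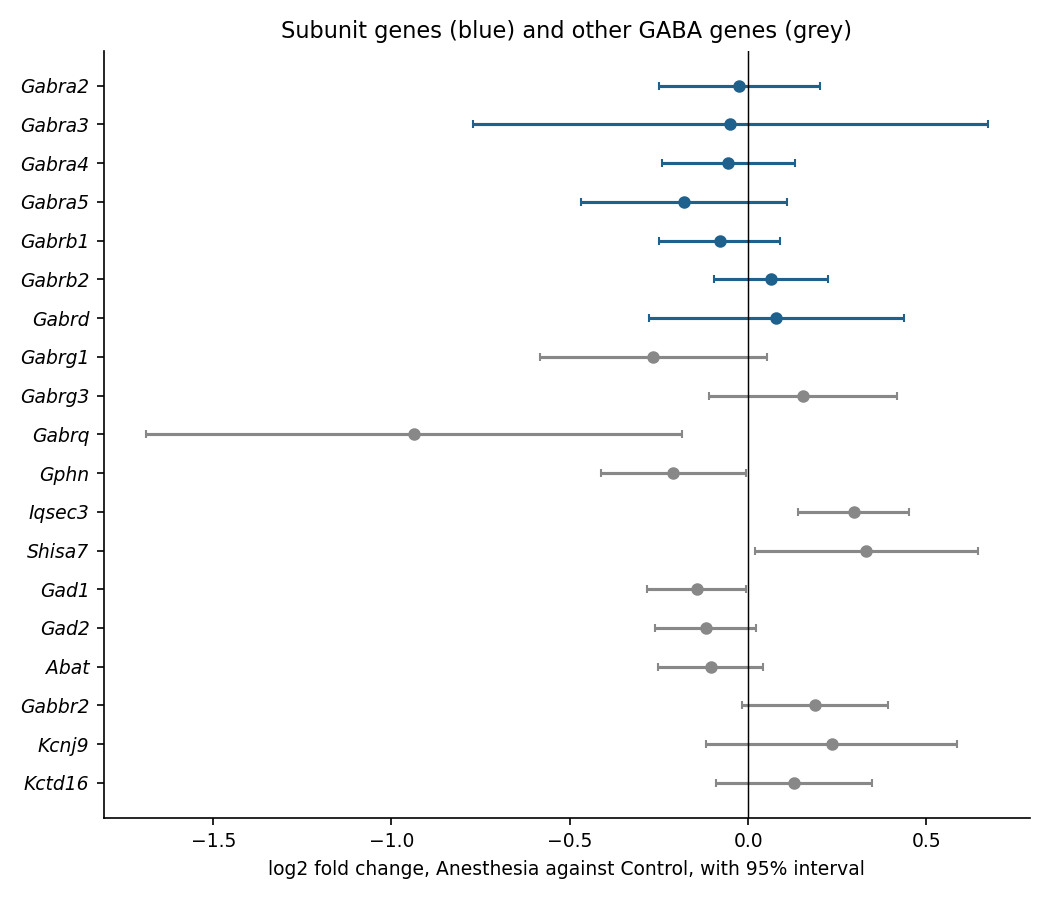
Log2 fold change of Anesthesia against Control with its 95% interval (x axis) for the 7 subunit genes in blue and 12 other GABA genes in grey (y axis). Every blue interval crosses 0, that of Gabra3 being the widest at -0.77 to 0.67, and no gene shown had an adjusted p under 0.05.

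Marker lists of other cells and regions held 0 called genes as well. The median log2 fold change was -1.95 for the 12 choroid plexus markers, all below 0 with overlapping groups, and lay between -0.10 and 0.17 for the lists of thalamus, CA1, CA3, dentate granule, GABAergic interneuron, astrocyte, oligodendrocyte, microglia and excitatory neuron genes. The summed normalized count of the 13 GABAergic interneuron markers was 18863 to 22584 in Anesthesia and 20321 to 22580 in Control mice. No marker found in the table was at 0 in all mice. Gbx2, on the thalamus list, was not in the table. A filter on low genes may have acted earlier, so the absence of such zeros carries little weight.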

How the data were processed

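The authors estimated transcript abundance with Salmon (v1.1.0) against GRCm38 with correction for GC bias, summed it per gene with tximport in R (v3.5.3) and divided the counts by DESeq2 (v1.30.1) size factors. The deposited table holds this signal, normalized counts that are not whole reads, for 20802 genes in 8 columns, 1 per mouse, and 0 columns belonged to no sample. The annotation release and any filter on low genes are not given in the sources used here. Symbols were matched to 20784 of the Ensembl identifiers with GENCODE M21.

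Values were compared with limma (version 3.58.1, R 4.3.3) on log2(normalized count + 1) with a mean-variance trend and no covariate, for 18865 genes whose mean was 10 or more, which left out 1937. This stands in for a count model, which such values do not allow. The Benjamini-Hochberg adjustment ran over all genes tested, with a threshold of 0.05, and intervals are at 95%. Correlations were tested by exact permutation of the mice in numpy (2.4.6), with ranks from scipy (1.17.1), and adjusted over each family of 21. Log2 ratios between libraries had an SD of 0.45 to 0.672, so none was deposited again under another name. Read depth per mouse cannot be read from the normalized values, and the precision given is the spread between mice.

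The subunit genes and all lists were chosen with earlier results of these data known. Beyond the 7 genes, the text names other subunits, the 3 genes of each GABA list with the smallest unadjusted p (none passed the threshold), and the 2 nearest profiles of each member; other genes within the rule are not reported here. The neocortical list, the comparison of SDs, the relations to subregion lists, the dentate granule covariate and the fit without Anesthesia 2 and 3 were added after the values were seen. Alternatives were limma voom, upper quartile and library size scaling, no filter, a minimum of 10 in each library, 0.1 as pseudocount, the replicate block, a loess correction for GC content and transcript length alone or with the block, a choroid plexus covariate and each mouse left out in turn. Scripts were tested on simulated data. Promoter windows are from RefSeq on GRCm38.p6, matched by gene symbol.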

Additional observations from a re-analysis of the deposited data

How the results depend on the processing

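No subunit gene passed the threshold in any of 20 alternatives. Over all genes 0 passed it in each of them except without Control 1, where 2 did, so that leaving out 1 mouse gave 0 to 2. The subunit genes with an unadjusted p under 0.05 in limma numbered 0 to 1 when 1 mouse was left out, and 1 with the dentate granule covariate or without both Anesthesia 2 and 3. Each time the gene was Gabra5, with log2 fold changes of -0.31 without Anesthesia 2, -0.18 with the covariate and -0.20 without both. Over all genes that count was 909 with the correction for GC content and length together with the replicate block, 857 with the choroid plexus covariate and 953 without both mice, beside 1513. It also moved upwards, with 1874 under the dentate granule covariate. With 1 mouse left out it ran from 1061 (without Anesthesia 3) to 2024 (without Anesthesia 1). The replicate block alone gave 1084, with 0 subunit genes, and changed no call. Deviations of same-numbered mice from their group means had correlations of -0.242, -0.109, -0.182 and 0.019 over all genes tested. Mice of different numbers were not compared in this way, so these values cannot exclude a pairing.

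Gabra4, Gabra5 and Gabrb1 kept a log2 fold change below 0 in all 20. Their values with 1 mouse left out were -0.11 (without Anesthesia 2) to -0.002 (without Control 1) for Gabra4, -0.31 to -0.061 for Gabra5, and -0.13 (without Control 4) to -0.015 (without Anesthesia 3) for Gabrb1. Gabra4 was -0.12 with the choroid plexus covariate and -0.13 without both Anesthesia 2 and 3, and Gabrb1 -0.004 without both. Leaving out 1 mouse gave -0.10 to 0.036 for Gabra2, which was 0.003 without Anesthesia 2, 0.036 without Anesthesia 3, 0.032 without Control 1 and 0.009 without Control 2. It gave -0.30 to 0.30 for Gabra3, which was 0.30 without Anesthesia 2, 0.071 without Control 2 and 0.009 without Control 4. It gave -0.0021 to 0.10 for Gabrb2, below 0 without Control 3, and -0.061 to 0.20 for Gabrd, below 0 without Anesthesia 3. Without both Anesthesia 2 and 3 the values were 0.11 for Gabra2, 0.11 for Gabra3 and -0.19 for Gabrd, and Gabrd was -0.12 with the choroid plexus covariate. The cause was not tested.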
